A study of Mus musculus with 2 samples.

Results

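The troponin genes Tnnt1, Tnnt2, Tnnt3, Tnni1, Tnni2, Tnni3, Tnnc1 and Tnnc2 were described in DNase-seq of mouse gastrocnemius, a calf muscle of the hindlimb. They were taken by name from GENCODE M21, and all 8 were found among its 21911 protein-coding genes. In DNase-seq, nuclei are treated with the nuclease DNase I, and positions it cuts often are read as open chromatin. The 2 libraries formed 1 group, labelled biological replicates 1 and 2. Each came from gastrocnemius of 3 female B6CASTF1/J mice aged 10 days, and there was no other condition, genotype or treatment. B6CASTF1/J animals are first-generation hybrids of C57BL/6J and CAST/EiJ, so that 1 of the 2 alleles at each locus comes from a strain other than that of the mm10 reference genome.

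Troponin is the calcium switch of the thin filament in striated muscle. Its subunit T ties the complex to tropomyosin, its subunit I inhibits the contact of actin with myosin, and its subunit C binds calcium and lifts that inhibition. Separate genes encode the forms of fast fibres (Tnnt3, Tnni2, Tnnc2), slow fibres (Tnnt1, Tnni1) and heart (Tnnt2, Tnni3), while Tnnc1 serves both slow fibres and heart, and the T and I genes lie in pairs along the chromosomes. The gastrocnemius is mostly a fast muscle in the adult, and developing skeletal muscle also transcribes slow forms and Tnnt2.

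The sequences on which the results turn are printed first, 5′ to 3′ on the plus strand of mm10 (GRCm38). The 3 peaks around Tnni1 and Tnnt2 were called in both libraries and are shown with the bases that lay in footprints of both libraries in capitals. A footprint is a short run of bases that the authors called as protected from DNase I, and not every footprint lay inside a called peak. The first peak lies at chr1:135781381-135781560, in a non-coding exon of a processed Tnni1 transcript. The second lies at chr1:135811361-135811540, 372 bp past the end of Tnni1, and the last at chr1:135865661-135865820, between Tnnt2 and Pkp1.
Tnni1 upstream peak: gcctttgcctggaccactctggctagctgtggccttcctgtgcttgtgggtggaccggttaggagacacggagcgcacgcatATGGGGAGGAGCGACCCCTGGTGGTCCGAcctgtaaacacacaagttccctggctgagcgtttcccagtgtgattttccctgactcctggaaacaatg
Tnni1 downstream peak: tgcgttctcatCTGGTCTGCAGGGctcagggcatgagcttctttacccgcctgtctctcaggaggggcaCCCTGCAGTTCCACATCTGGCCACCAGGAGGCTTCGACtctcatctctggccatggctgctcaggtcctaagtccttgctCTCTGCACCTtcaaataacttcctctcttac
Tnnt2 downstream peak: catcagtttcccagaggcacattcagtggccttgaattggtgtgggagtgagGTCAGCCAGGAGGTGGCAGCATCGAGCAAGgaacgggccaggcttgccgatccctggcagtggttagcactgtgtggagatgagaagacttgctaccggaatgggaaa

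The peak at −11.2 kb from the Tnni2 start, chr7:142430421-142430620 between genes, was the shared distal peak nearest to the start of a fast troponin gene and is shown in the same way. Its last run of capitals lies past the end of the overlapping peak of replicate 2.
Tnni2 upstream peak: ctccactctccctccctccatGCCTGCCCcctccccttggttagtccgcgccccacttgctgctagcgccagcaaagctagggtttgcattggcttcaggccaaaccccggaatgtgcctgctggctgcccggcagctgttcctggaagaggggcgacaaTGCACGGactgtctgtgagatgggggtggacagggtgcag
The peak inside Tnnt1, at chr7:4510021-4510200, was called in replicate 1 only, spans the edge of a coding exon and an intron, and is shown with the replicate 1 footprints in capitals.
Tnnt1 internal peak: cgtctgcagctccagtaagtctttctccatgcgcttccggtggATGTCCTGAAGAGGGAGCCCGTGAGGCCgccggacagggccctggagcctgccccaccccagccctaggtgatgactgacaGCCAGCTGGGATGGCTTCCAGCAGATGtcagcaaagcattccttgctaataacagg

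The 250 bases upstream of the starts of Tnnc1 (chr14:31208062-31208311) and Tnnt2 (chr1:135836084-135836333), both on the plus strand, come from the RefSeq promoter table of the same build. They are shown because the Tnnc1 start had open chromatin beside it in replicate 1 and the Tnnt2 start had none in either library. Capitals mark matches to the E-boxes CAGCTG and CACCTG and to the MCAT box CATTCC, on either strand.
Tnnc1 promoter: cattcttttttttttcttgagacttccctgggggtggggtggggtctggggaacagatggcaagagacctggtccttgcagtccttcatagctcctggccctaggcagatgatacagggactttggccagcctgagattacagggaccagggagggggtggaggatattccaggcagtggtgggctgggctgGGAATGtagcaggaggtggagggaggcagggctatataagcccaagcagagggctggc
Tnnt2 promoter: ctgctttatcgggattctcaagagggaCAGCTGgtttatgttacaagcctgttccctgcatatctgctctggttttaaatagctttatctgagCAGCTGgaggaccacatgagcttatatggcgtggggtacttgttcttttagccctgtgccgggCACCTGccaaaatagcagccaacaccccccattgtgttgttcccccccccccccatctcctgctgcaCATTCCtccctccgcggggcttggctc

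Of the libraries as a whole, replicate 1 had 114758 peaks in the stricter of its 2 deposited lists and 189128 in the longer, and replicate 2 had 26804 and 46786. Every peak of a stricter list held a base with a false discovery rate (FDR) under 0.001 and every peak of a longer list one under 0.05. Peak height is a signal that the authors normalized to read depth on a scale not given in the sources used here, so heights are given per library and ranked only within a library. Read totals were not used here. Each library was called alone, and the difference between the 2 libraries is the only replicate spread. In bulk tissue, fewer nuclei with an open site and less cutting per nucleus cannot be told apart. The tissue label was checked against markers, by peaks within 1 kb of a start in the stricter lists. Such a promoter peak was found at 6 of 8 skeletal muscle markers in replicate 1 and 3 of 8 in replicate 2, with Ckm and Actn3 in both, where 66.7% and 51.4% of all protein-coding genes had one, so the muscle list did not stand out. Of 6 cardiac markers, 1 (Ryr2) had one in replicate 1 and 0 in replicate 2. Neuronal markers had a promoter peak at 6 of 6 genes in replicate 1 and 4 of 6 in replicate 2, and macrophage markers at 0 of 4 in both. Schwann cell and endothelial markers each had one at 1 of 4 genes in both replicates. Tendon and fibro-adipogenic markers had one at 2 of 4 in replicate 1 and 3 of 4 in replicate 2, and satellite cell markers at 0 of 3 and 1 of 3. The part of any other cell type in the troponin values was not tested.

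Few troponin promoters were open at the stricter threshold. A promoter peak, within 1 kb of any annotated transcription start site, was found at 3 of the 8 genes in replicate 1, at 0 of 8 in replicate 2 and so at 0 of 8 in both. Among all protein-coding genes the shares were 66.7% in replicate 1, 51.4% in replicate 2 and 51.0% in both. The 3 genes were Tnni2, the fast inhibitory subunit, with a height of 0.650, Tnnt1, the slow tropomyosin-binding subunit, with 1.34, and Tnni1, the slow inhibitory subunit, with 1.27. In height these peaks exceeded 23.7%, 54.8% and 52.6% of the stricter list of replicate 1. In the longer lists 6 of 8 genes had a promoter peak in replicate 1 (71.1% of all genes) and 2 of 8 in replicate 2 (59.7% of all genes).

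The longer lists added the fast calcium-binding subunit Tnnc2 with a height of 0.603, the slow and cardiac calcium-binding subunit Tnnc1 with 2 peaks of up to 0.531, and the cardiac inhibitory subunit Tnni3 with 0.638, all in replicate 1. In replicate 2 they held 1 peak each at Tnni2, of height 2.15, and at Tnni1, of height 0.890. The Tnni2 peak of replicate 2 reached a lowest FDR of 0.00109, just outside the limit of the stricter list, and that of replicate 1 reached 0.000191, just inside it. At Tnni2, then, a peak lay in the same stretch upstream of the gene in both libraries, and its place in the stricter list differed. At Tnni1 the replicate 2 peak overlapped another longer-list peak of replicate 1, of height 0.597, which ended 8 bp before an annotated start. The Tnnt3 and Tnnt2 genes, the fast and cardiac forms of the tropomyosin-binding subunit, had no promoter peak in any of the 4 lists.

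**Figure D1:**
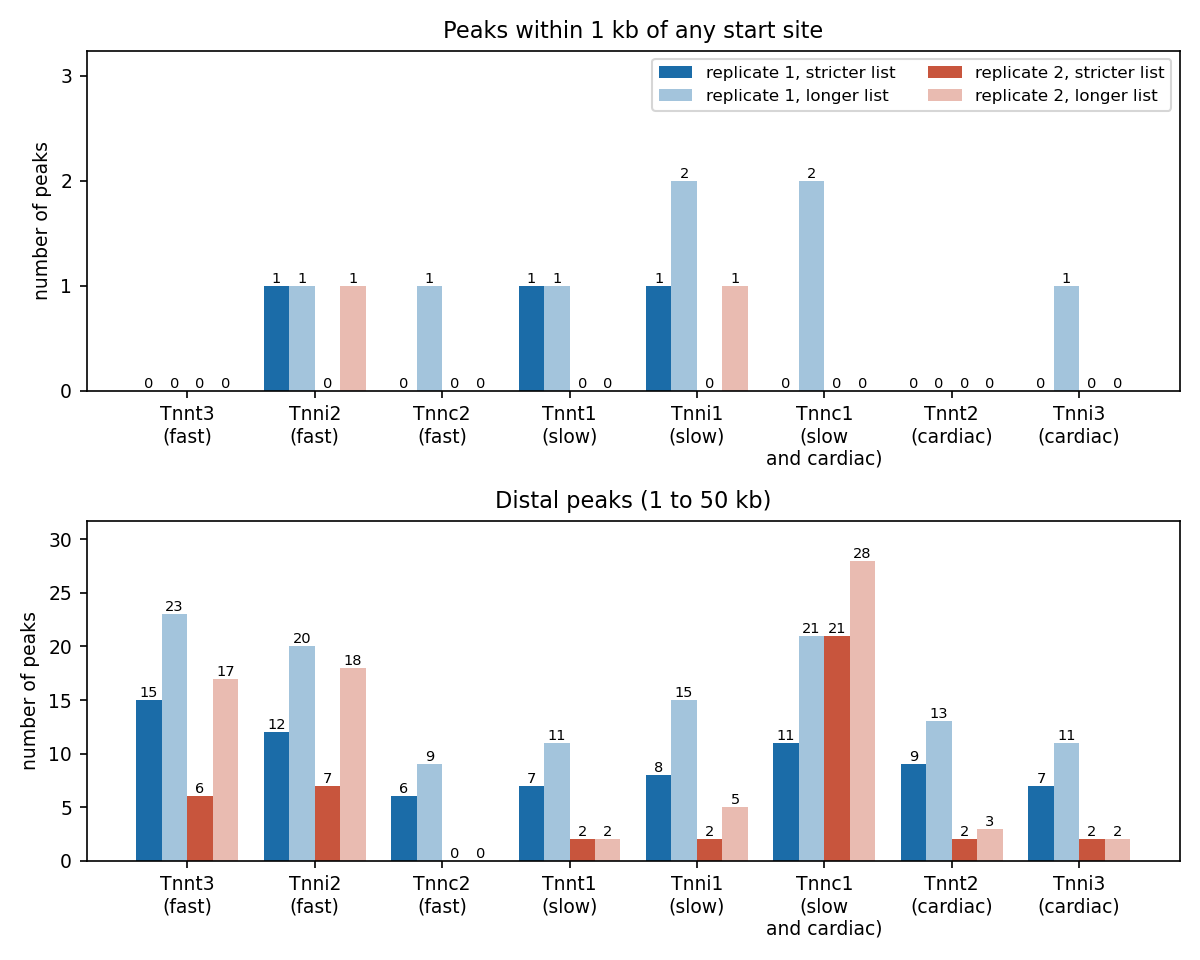
Number of peaks per troponin gene within 1 kb of any start site (upper panel) and between 1 and 50 kb (lower panel), with the stricter lists in full colour and the longer lists in pale colour, replicate 1 in blue and replicate 2 in red. Promoter peaks of the stricter list stand at Tnni2, Tnnt1 and Tnni1 of replicate 1 alone, and Tnnc1 is the one gene with more distal peaks of the stricter list in replicate 2 (21) than in replicate 1 (11).

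The FDR intervals show the signal below the peak threshold. A base with an FDR of at most 0.05 lay within 1 kb of a start at 6 of 8 troponin genes in replicate 1, where 71.8% of all genes had one, and at 2 of 8 in replicate 2, where 60.9% had one. In replicate 1 the lowest FDR was 3.59e-08 at Tnni1, over 488 such bases, and 8.55e-08 at Tnnt1, over 270 bases. It was 0.00152 at Tnnc1 over 382 bases, 0.0029 at Tnnc2 over 176 bases and 0.00672 at Tnni3 over 129 bases. In replicate 2 the lowest FDR was 0.00109 at Tnni2, over 278 bases, and 0.0187 at Tnni1, over 77 bases. At Tnnt3 and Tnnt2 no interval of either library held such a base.

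None of these peaks lay over the main start of its gene, taken as the outermost RefSeq start or, for Tnnt3 and Tnni2, the first coding start of GENCODE. The count of such peaks was chosen after the values were seen. It was 0 of 8 in the longer list of each library, where 48.9% of all protein-coding genes had a peak over the main start in replicate 1 and 36.6% in replicate 2. The nearest approach was at Tnnc1, where a peak of height 0.507 in the longer list of replicate 1 ended 4 bp before the start. That peak, at 31208138 to 31208308, lies within the Tnnc1 promoter printed above. At Tnni2 the promoter peaks of the longer lists ended at −0.79 kb from the start in replicate 1 and at −0.71 kb in replicate 2. The Tnni1 peak in the stricter list of replicate 1 began 1.24 kb inside the gene from its RefSeq start, and counted as a promoter peak through a start further along.

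The Tnnt1 peak lay 5.78 kb downstream of the RefSeq start and 83 bp from the start of a short retained-intron transcript, with no base of an FDR of at most 0.05 within 500 bp of the RefSeq start. With only the outermost coding start of each gene, 1 of 8 genes (Tnni2) kept a promoter peak in replicate 1. For Tnnc2 the longer-list peak began 0.63 kb inside the gene. The longer-list peak of Tnni3 lay at −1.82 kb from the RefSeq start and at −123 bp from the first coding start of GENCODE. The nearest stricter peak to the Tnnt2 start was at 11.8 kb in replicate 1 and at −24.8 kb in replicate 2, negative distances being upstream. For the Tnnt3 start these distances were 10.8 kb and −20.3 kb.

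**Figure D2:**
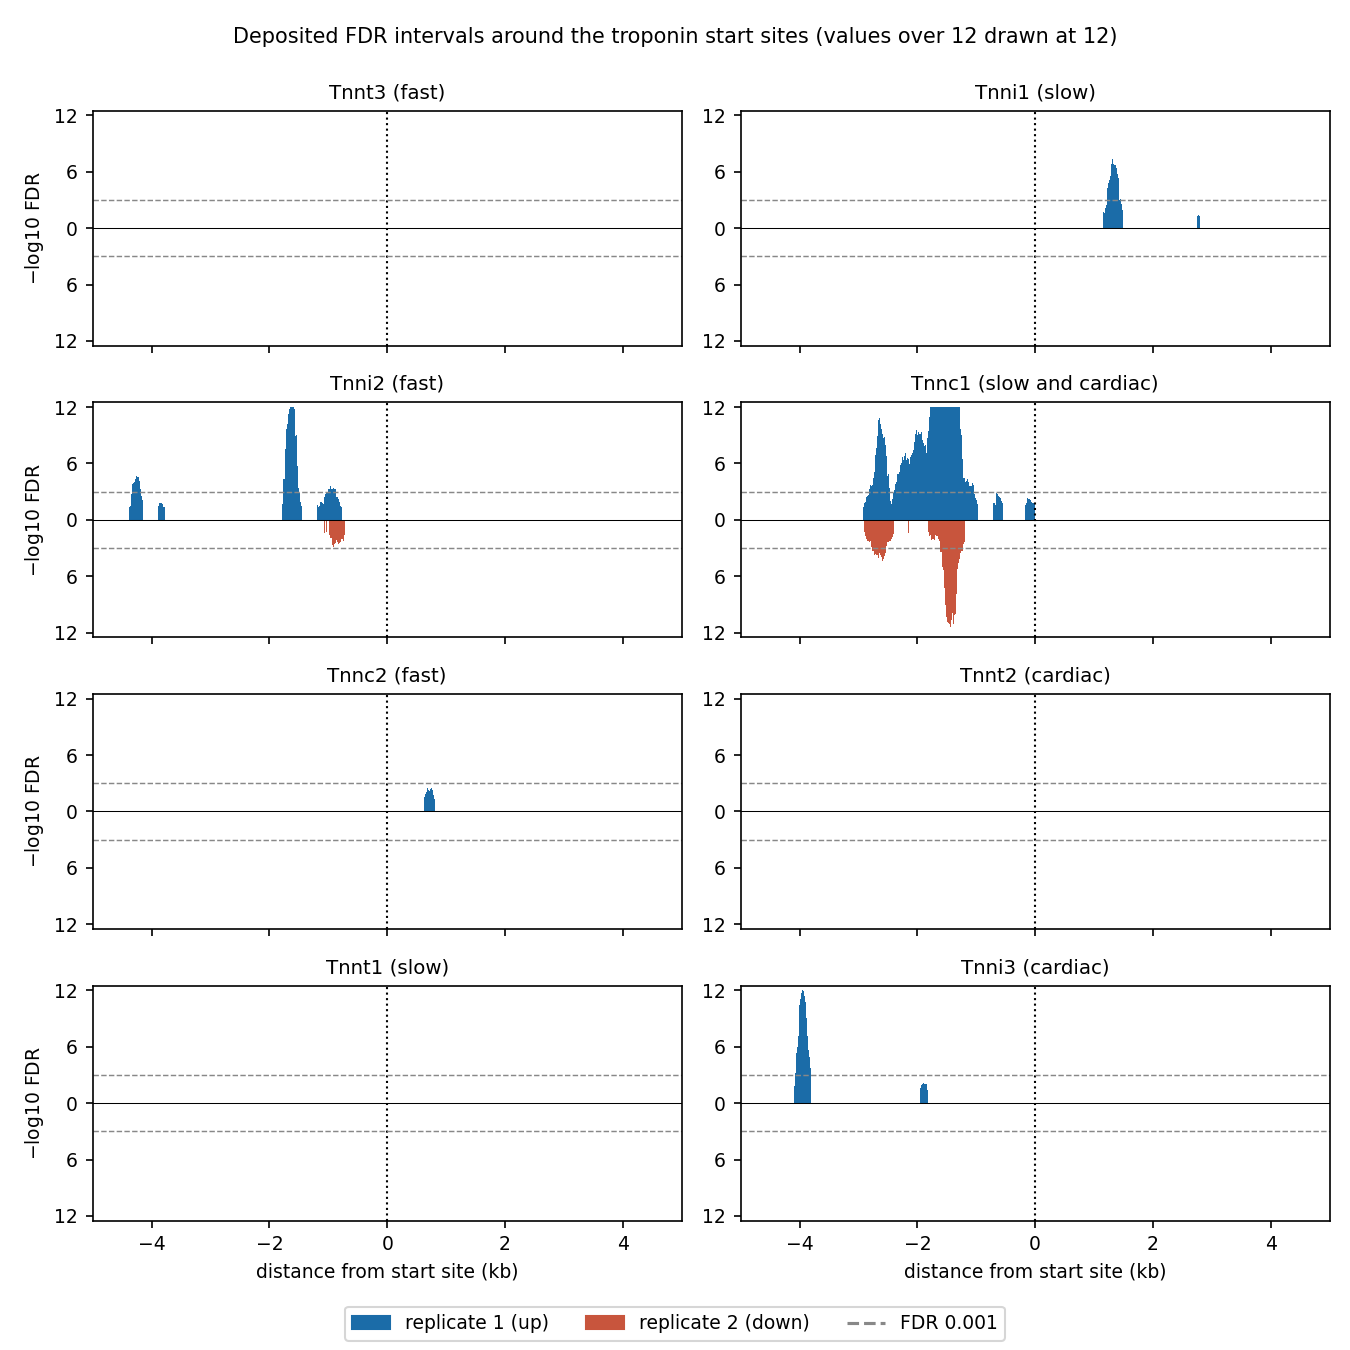
Deposited FDR intervals as −log10 FDR against the distance in kb from the main start of each troponin gene along its strand, with replicate 1 upward and replicate 2 downward, values over 12 drawn at 12, and dashed lines at an FDR of 0.001. The dotted line marks the start. Within 500 bp of it only Tnnc1 has an interval, in replicate 1, and the panels of Tnnt3, Tnnt1 and Tnnt2 are empty over the 5 kb shown to each side.

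Most troponin starts were poor in CpG. The observed-to-expected CpG ratio was taken over 500 bp to each side of every annotated start, keeping the highest value of each gene. For 7 of 8 genes it fell in the lowest of 3 equal classes of protein-coding genes, from 0.0809 at Tnnc1 to 0.375 at Tnni3. The exception was Tnnt1, at 0.803, in the highest class. In the lowest class 15.8% of genes had a promoter peak of the stricter list in replicate 1 and 4.90% in replicate 2, against 98.3% and 87.0% in the highest class. Of the 7 troponin genes in the lowest class, Tnni2 and Tnni1 had such a peak in replicate 1 and none had one in replicate 2. The shares over all protein-coding genes, given here for promoter peaks and main starts, are not matched to the troponins in CpG. For Tnnt1 the ratio depended on the start: over the 300 bases of the RefSeq promoter it was 0.238.

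Away from the starts the troponin genes had more peaks than most genes in replicate 1. Distal peaks lay more than 1 kb from every start of a protein-coding gene and within 50 kb of a start of the troponin gene. All 8 genes had at least 1 in replicate 1 (84.0% of all genes) and 7 of 8 in replicate 2 (40.1%), and 7 of 8 had one shared by both libraries (35.4%). A peak was shared when the overlap covered at least 50% of either peak. Over all protein-coding genes the median number was 4 in replicate 1 and 0 in replicate 2. As distinct peaks, counting a peak in overlapping windows once, the loci held 55 in replicate 1, 33 in replicate 2 and 11 shared. The 11 were 4 at Tnni2 and Tnnt3, 3 at Tnni1 and Tnnt2, 2 at Tnnt1 and Tnni3, 2 at Tnnc1 and 0 at Tnnc2. Genes of a pair counted some of the same peaks, so the counts of genes above are not independent. With only the 26804 tallest peaks of each library, replicate 1 had 12 and replicate 2 had 33, so that the library with more distal peaks changed.

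By gene, the fast Tnnt3 had 15 distal peaks in replicate 1 and 6 in replicate 2, and the fast Tnni2 had 12 and 7. The fast Tnnc2 had 6 and 0, and was the one troponin gene without a shared distal peak. The slow Tnnt1 had 7 and 2, and the slow Tnni1 had 8 and 2. The slow and cardiac Tnnc1 had 11 and 21, the cardiac Tnnt2 had 9 and 2, and the cardiac Tnni3 had 7 and 2. In replicate 1 the fast genes ranged from 6 to 15, Tnnt1 and Tnni1 from 7 to 8, and Tnnt2 and Tnni3 from 7 to 9. In replicate 2 the fast genes had 6, 7 and 0, and Tnnt1, Tnni1, Tnnt2 and Tnni3 had 2 each. Tnnc1, in both roles, is left out of these ranges. The counts cannot set slow against cardiac genes. Tnnt1 and Tnni3 counted the same peaks, and Tnni1 and Tnnt2 some of the same. In replicate 1 the share of protein-coding genes with fewer distal peaks ran from 65.5% for Tnnc2 to 95.1% for Tnnt3. In replicate 2 it was 99.9% for Tnnc1, 98.6% for Tnni2 and 98.1% for Tnnt3, 82.2% for Tnnt1, Tnni1, Tnnt2 and Tnni3, and 0% for Tnnc2.

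**Figure D3:**
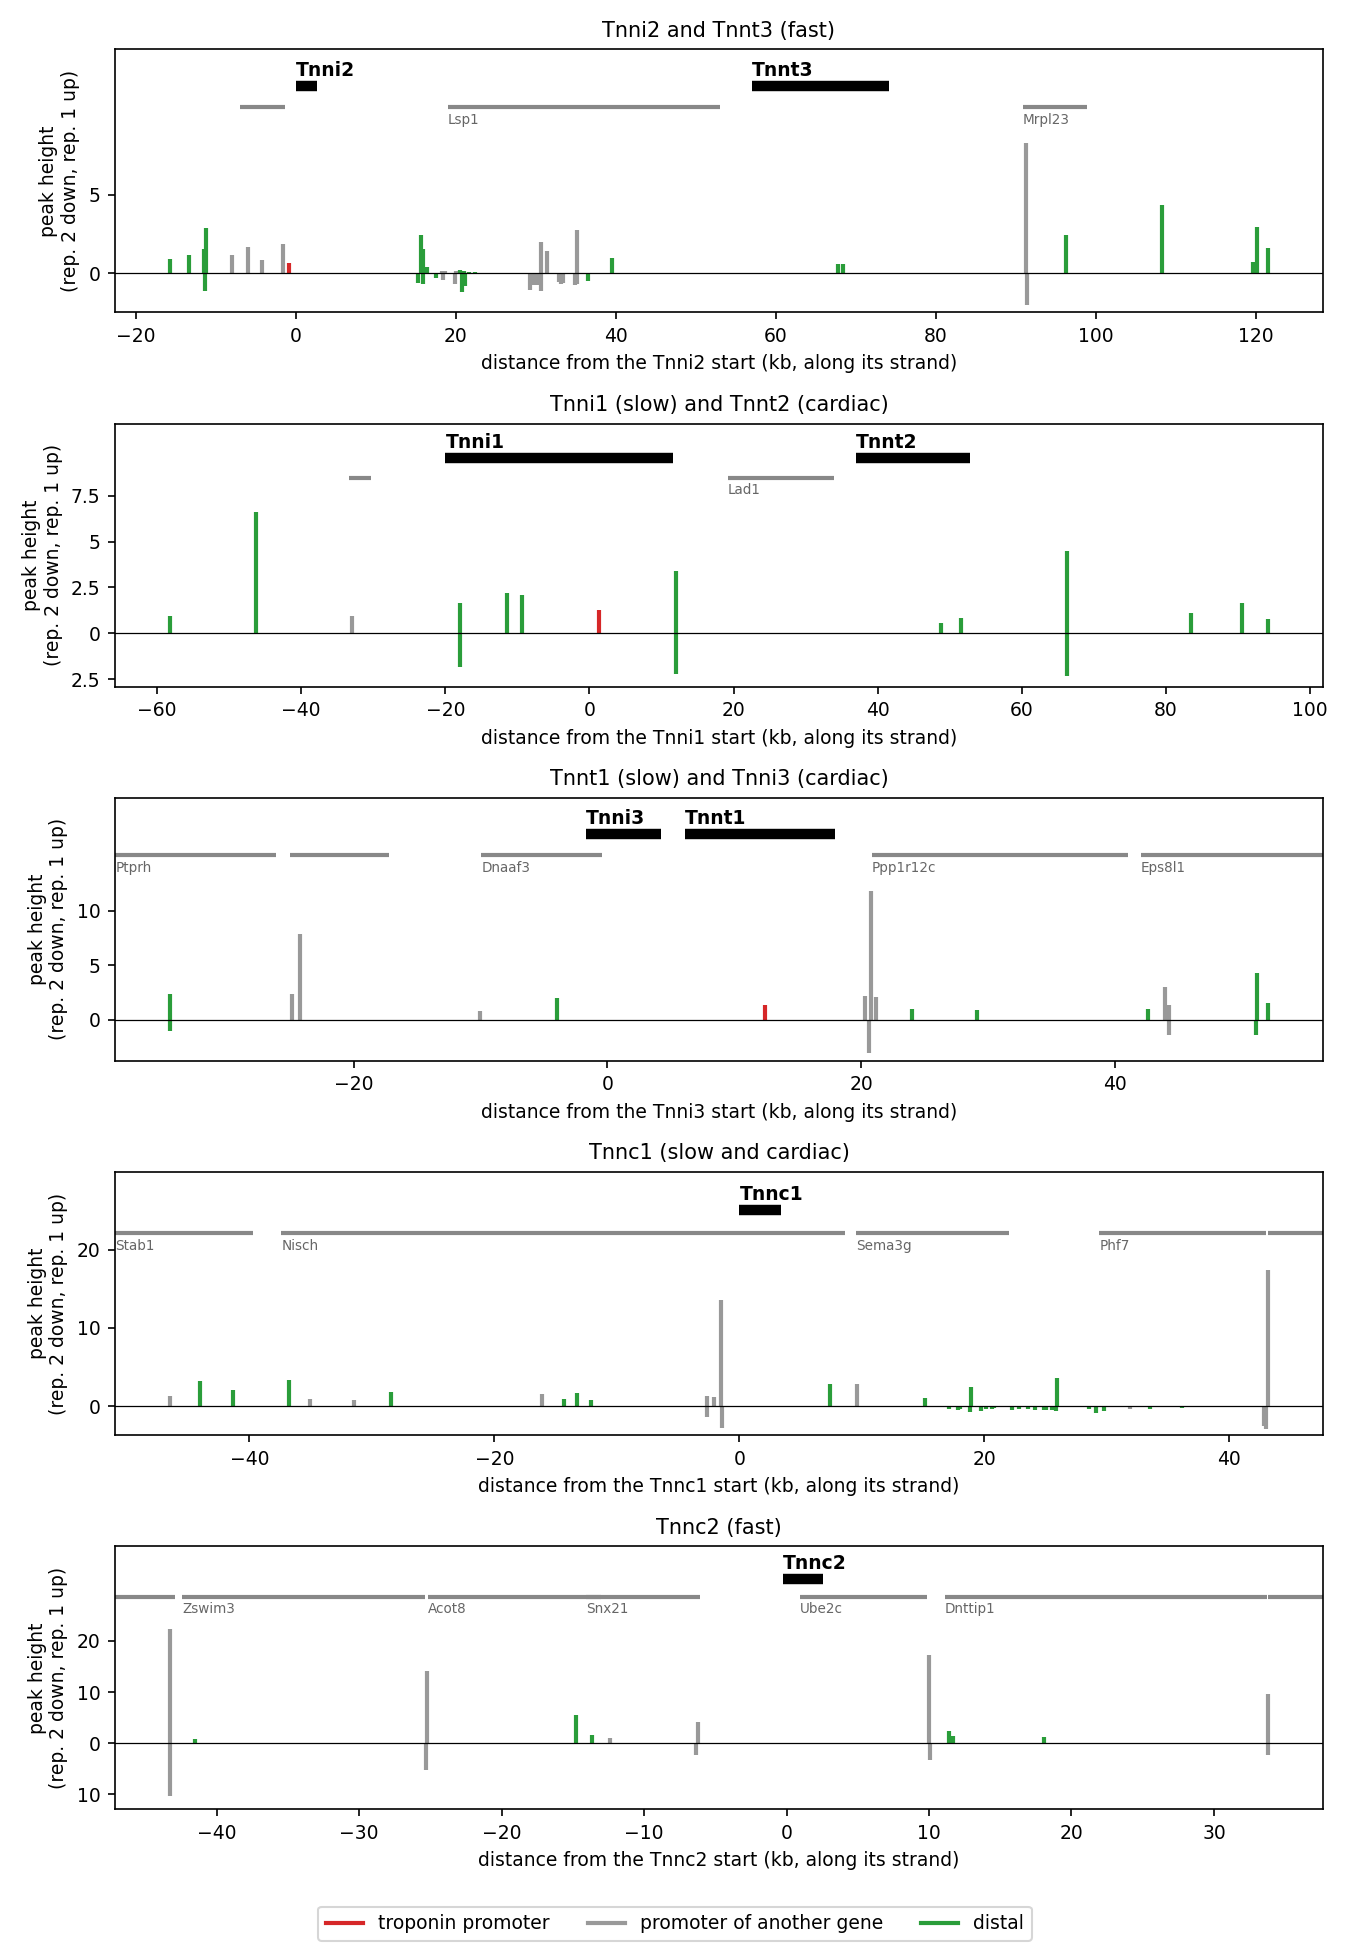
Peaks of the stricter lists at the 5 troponin loci, as height (replicate 1 upward, replicate 2 downward) against distance in kb from the main start of the gene named under each axis, along its strand, with black bars for troponin genes and grey bars for other genes. Green peaks are distal, red ones lie at a troponin start and grey ones at starts of other genes; the 3 replicate 2 peaks of the Tnni1 and Tnnt2 locus all face a peak of replicate 1.

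The slow Tnni1 and the cardiac Tnnt2 lie on chromosome 1, 25.4 kb apart with Lad1, the gene of the basement membrane protein ladinin, between them. In the stricter lists, replicate 1 had 14 peaks within 50 kb of either gene, of which 12 were distal, and replicate 2 had 3, all distal and all shared. In the longer lists 5 of the 6 distal peaks of replicate 2 were shared. The peak at −17.9 kb from the RefSeq start of Tnni1 had a height of 1.65 in replicate 1 and 1.83 in replicate 2. The peak just past the end of Tnni1 had 3.43 and 2.23, and the peak 13401 bp past the end of Tnnt2 had 4.46 and 2.32. Within their lists these 3 peaks stood above 62.5%, 81.6% and 86.4% of the peaks in replicate 1 and above 66.0%, 78.6% and 80.7% in replicate 2. The order of the 3 heights was the same in the 2 libraries.

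Each of these 3 peaks held a footprint of both libraries over a match to a CTCF motif, as in the capitals of the first sequences above. CTCF is a zinc-finger protein that binds at domain borders and loop anchors. The motif was searched as a consensus of its core on either strand. In the peak past Tnni1 the match was CCACCAGGAGGC and in the peak past Tnnt2 it was CCAGGAGGTGGC. The peak upstream of Tnni1 matched only the first 10 letters of that core, as CCCCTGGTGG, the plus-strand letters of a match on the minus strand, a shorter form that was added after the sequences were seen. In the central 150 bp of peaks, the core was found in 8.40% of all stricter peaks in replicate 1 and 8.73% in replicate 2, and the short form, which every match to the core contains, in 22.4% and 20.1%. The core was found in 2 of the 11 shared distal peaks, and in 9 of the 55 distal peaks of replicate 1 and 2 of the 33 of replicate 2. The short form was found in 3 of 11, 20 of 55 and 6 of 33. A match describes the letters only, and binding was not measured.

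The tallest distal peak of the locus, and of all troponin loci in replicate 1, was not shared in the stricter lists. It lay between genes at 135753061 to 135753280 on chromosome 1, at −26154 bp from the nearest annotated Tnni1 start, with a height of 6.64 in replicate 1. In replicate 2 an overlapping peak of height 1.48 was in the longer list only. In introns of Tnni1 as annotated in GENCODE, but upstream of its RefSeq start, 2 peaks of replicate 1 had heights of 2.21 and 2.12. Inside Tnnt2, 2 intronic peaks of replicate 1 had 0.555 and 0.829. None of these 4 was in the stricter list of replicate 2, and its longer list held 1 of them, the Tnni1 peak of 2.12, with a height of 1.29. Over the Tnnt2 start, where the printed promoter holds CAGCTG at positions −223 and −157, CACCTG at −94 and CATTCC at −27 from the start, neither library had an interval. Among all RefSeq promoters of protein-coding genes 15.7% held CAGCTG, 19.7% CACCTG and 13.4% CATTCC.

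The fast pair Tnni2 and Tnnt3 lies on chromosome 7, 54.4 kb apart with Lsp1, a gene named for a protein of leukocytes, between them. It had the most distal peaks of the 3 pairs: 19 in replicate 1, of heights 0.119 to 4.32, and 7 in replicate 2, of heights 0.300 to 1.15. Of the peaks of replicate 1, 4 were shared. The peak at −11.2 kb from the Tnni2 start had a height of 2.85 in replicate 1 and 1.09 in replicate 2, above 77.7% and 28.2% of the respective lists. Its sequence, printed above, holds CAGCTG at 142430554 to 142430559, within a footprint of replicate 2 that lies outside the peaks of that library, and GGAATG, the MCAT box read on the other strand, at 142430530 to 142430535, of which all but the last base lay in a footprint of replicate 1. Neither match lay in a footprint of both libraries.

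The other 3 shared peaks lay between the 2 genes, near or in Lsp1. The first, between Tnni2 and Lsp1 and 15.8 kb from the Tnni2 start, had heights of 1.53 and 0.686. Those in an Lsp1 intron had 0.221 and 0.173 in replicate 1, and both overlapped 1 longer peak of 1.15 in replicate 2. Inside Tnnt3 itself replicate 1 had 2 intronic peaks, of heights 0.621 and 0.609, and replicate 2 had none. The tallest distal peak of this locus, of 4.32 in replicate 1 at 142550021 to 142550220, lay past Mrpl23, on the far side of Tnnt3, and had no counterpart in replicate 2. The one peak within 50 kb of Tnnt3 and past the end of that gene in replicate 2 was the promoter of Mrpl23, a mitochondrial ribosomal protein gene, with 8.25 in replicate 1 and 1.97 in replicate 2.

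The slow Tnnt1 and the cardiac Tnni3 also lie on chromosome 7, only 1.92 kb apart with no coding gene between them, so their windows held the same peaks. There were 7 distal peaks in replicate 1, of heights 0.865 to 4.30, and 2 in replicate 2, of 1.03 and 1.42, both shared. Those 2 lay in the genes at the edges of the window. One was in an exon of Eps8l1, with 4.30 in replicate 1 and 1.42 in replicate 2, and the other in an intron of Ptprh, with 2.36 and 1.03. The peak nearest to Tnni3, of height 1.98 in replicate 1, lay at −3.85 kb from its RefSeq start in an exon of Dnaaf3 and was not called in replicate 2. The internal Tnnt1 peak, with the sequence shown above, had the E-box CAGCTG inside a footprint of replicate 1. That E-box was found in 16.3% of all stricter peaks of replicate 1. The tallest peak of the window was at the start of Ppp1r12c, with 11.8 in replicate 1 and 3.01 in replicate 2. It exceeded 96.6% of the list of replicate 1, and the internal Tnnt1 peak 54.8%.

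Tnnc1 lies alone on chromosome 14, and its start is close to the starts of several coding Nisch transcripts on the other strand, while a non-coding Nisch transcript runs across it. The peak at those Nisch starts, at −1.41 kb from the Tnnc1 start in replicate 1 and −1.27 kb in replicate 2, had a height of 13.6 in replicate 1 and 2.78 in replicate 2 and was the nearest stricter peak to Tnnc1 in both. Of the distal peaks 2 were shared. The peak in a Sema3g intron, 18.8 kb from the Tnnc1 start, had heights of 2.44 and 0.740. The peak between Sema3g and Phf7, 25.8 kb from the start, had 3.58 and 0.633. Both ranked high in replicate 1, above 74.1% and 82.5% of its list, and low in replicate 2, above 10.4% and 7.1%. The printed Tnnc1 promoter holds GGAATG, the MCAT box read on the other strand, at position −58 from the start, within the bases covered by the longer-list peak of replicate 1.

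Tnnc2 lies alone on chromosome 2 between genes with tall promoter peaks. Replicate 1 had 12 peaks within 50 kb, of which 6 were distal, with heights of 0.853 to 5.49. Replicate 2 had 5, all at starts of other genes. The promoter peaks of Snx21 (4.08 in replicate 1 and 2.24 in replicate 2), Ube2c (17.2 and 3.23) and Zswim1 (22.35 and 10.3) were in both. The tallest distal peak, of 5.49 in an Acot8 intron, was in replicate 1 only. The libraries thus shared the promoters of its neighbours and no distal peak near Tnnc2.

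In 2 places the peaks of replicate 2 were many and low, and these loci had its highest numbers of distal peaks. At Tnnc1 replicate 2 had 26 stricter peaks within 50 kb, of which 21 were distal. Of the 26, 20 were in the lowest 10% of heights of that list. They ran over 19.1 kb through Sema3g and Phf7, with heights of 0.247 to 0.633. In that stretch 49.1% of bases had an FDR of at most 0.05 in replicate 2 and 5.3% in replicate 1, where 2 peaks had a median height of 3.01. At Tnni2 and Tnnt3 replicate 2 had 19 peaks, 7 of them distal and 12 at starts of other genes. Of the 19, 11 were in the lowest 10%, over 21.6 kb through Lsp1. There 49.9% of bases had such an FDR in replicate 2 and 27.1% in replicate 1. Replicate 1 had a like run of 8 peaks in its own lowest 10%, over 6.1 kb at the start of Lsp1, with 52.7% of bases in replicate 1 and 65.3% in replicate 2. The other 3 loci had 0 such peaks in both libraries. The cause of these runs was not tested. With the taller part of each list alone (above its median height), 32 distinct distal peaks were left in replicate 1, and 3 in replicate 2, the 3 of the Tnni1 and Tnnt2 locus.

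**Figure D4:**
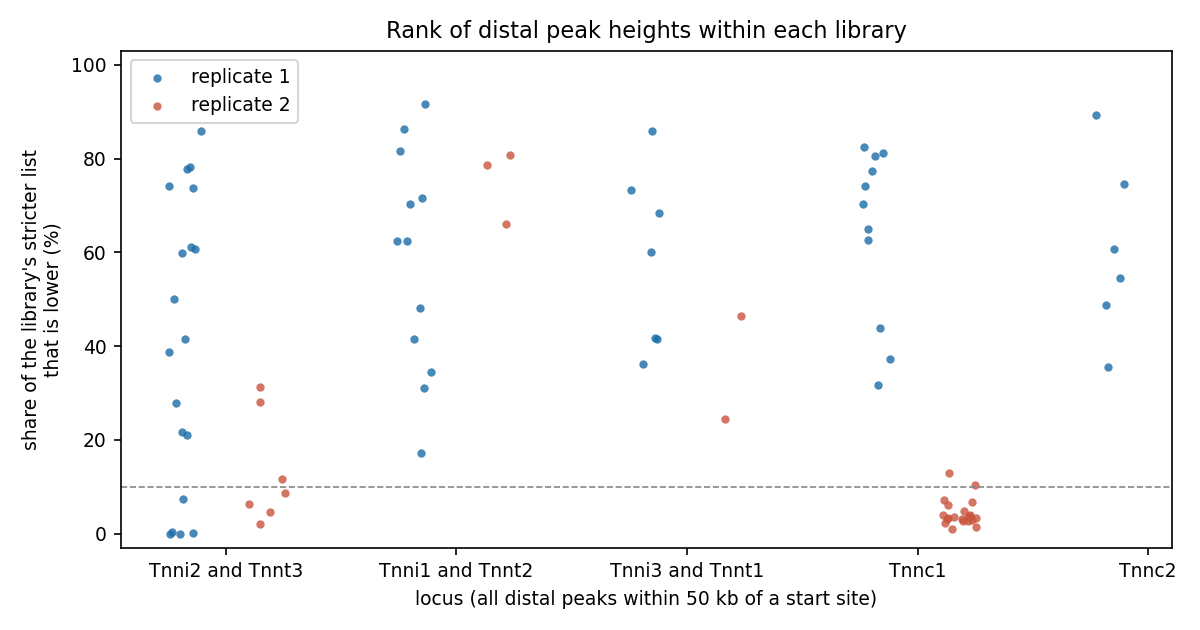
Share of the stricter list of the same library that is lower than each distal peak, in percent, by troponin locus, with replicate 1 in blue and replicate 2 in red, points spread sideways for legibility and a dashed line at 10%. The replicate 2 points of Tnnc1 lie at or below 12.9%, while those of Tnni1 and Tnnt2 lie at 66.0% or higher.

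Footprints were as uneven as the peaks. Within 1 kb of a start, replicate 1 had 8 at Tnni1, 4 at Tnnc1, 4 at Tnni3, 2 at Tnni2, 2 at Tnnt1, 1 at Tnnc2 and 0 at Tnnt3 and Tnnt2. Replicate 2 had 3 at Tnni2 and 0 at the other 7 genes. Within 50 kb and inside stricter peaks the 8 loci held 253 footprints in replicate 1 and 124 in replicate 2. The authors gave every footprint the same score, which leaves no rank among them. In the central 150 bp of the distal peaks of replicate 1, CAGCTG was found in 13 of 55, where 16.3% of all stricter peaks held it, CACCTG in 10 of 55 (15.7% of all) and CATTCC in 7 of 55 (7.73% of all). In those of replicate 2 they were found in 3, 3 and 5 of 33, where 10.9%, 12.1% and 6.37% of all peaks held them. The MEF2 consensus was in 0 of 55 and 0 of 33, where 0.215% and 0.134% of all peaks held it.

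The troponins were set beside other genes of the same machinery. Of 14 thin filament genes, 10 had a promoter peak of the stricter list in replicate 1, 7 in replicate 2 and 6 in both, against 3, 0 and 0 of the 8 troponins and 66.7%, 51.4% and 51.0% of all protein-coding genes. The tropomyosin genes, whose products carry troponin along actin, were among the 6: Tpm1 had heights of 24.2 in replicate 1 and 2.60 in replicate 2, Tpm2 had 5.64 and 2.59, and Tpm3 had 7.46 and 1.63. Cfl2, the muscle cofilin, had 7.55 and 1.88. Of 10 calcium handling genes, 5, 2 and 2 had one. The 2 in both were Atp2a2, the calcium pump of slow and cardiac muscle, with 12.15 and 2.24, and Jph1, which joins the sarcoplasmic reticulum to the transverse tubules, with 6.41 and 1.34. The median number of distal peaks in replicate 1 was 8.5 for the troponins, 6 for the thin filament genes and 7 for the calcium handling genes, and in replicate 2 it was 2, 1 and 1. The difference between these lists was not tested.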

How the data were processed

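DNase-seq was measured in 2 libraries of 1 group. Per the labels and the deposited lists of files, the authors derived peaks, FDR intervals and footprints from the filtered alignments of each library alone, on mm10. The sources used here do not say which aligner and callers were run. The peak value is a signal, a height that the authors normalized to read depth. The deposited intervals carry an FDR, a corrected p-value, of at most 0.05. The deposited footprint score is 0.01 throughout.

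The stricter peak list of each library was the main one. Starts came from GENCODE M21, promoters of 6 of the 8 genes from RefSeq (GRCm38.p6), and genome letters from the same build; 0 of 658 promoter rows differed from the genome. Windows were 1 kb and 50 kb, and a shared peak overlapped at least 50% of either peak. Alternatives were the longer lists, equal numbers of tallest peaks (26804), the taller peaks, merged peaks, other windows (500 bp and 2 kb, 25 and 100 kb), other overlaps, stricter FDR limits and each library left out. With 1 group there was no test between conditions, and no p-value was computed.

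Genes named were the 8 troponins, genes whose starts carry a described peak, up to 4 per list with promoter peaks in both libraries by summed height, and for each troponin the 3 genes nearest in log2(1 + number of distal peaks) and log2(1 + promoter height). The members and lists were chosen with earlier results of these data known. Tall distal peaks and the single marker genes named were chosen after their values were seen. The 13 motifs were matched on both strands. Overlaps were tested on simulated intervals, where 0 of 2464 pairs differed from bedtools 2.31.1. The scripts ran on Python 3.11.15 with pysam 0.24.0, pandas 2.3.3, numpy 2.4.6 and matplotlib 3.10.9.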

Additional observations from a re-analysis of the deposited data

How the results depend on the processing

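The main values were 3 and 0 genes with a promoter peak in replicates 1 and 2, 0 in both, and 55, 33 and 11 distinct distal peaks in replicate 1, replicate 2 and shared. The longer lists gave 6, 2 and 2 genes and 92, 55 and 17 peaks. Equal numbers of tallest peaks gave 0 genes and 12 distal peaks in replicate 1 against an unchanged 33 in replicate 2, with 5 shared, which turned round the order of the libraries; the taller peaks gave 32, 3 and 3 distal peaks. Promoters within 500 bp, or of the outermost coding start, gave 1 gene in replicate 1, and promoters within 2 kb gave 5, 2 and 2 genes. Windows of 25 and 100 kb gave 36 and 85 distal peaks in replicate 1. Overlap of 50% of both peaks left 7 shared. Leaving out 1 library in turn, which leaves no peak to share, gave 0 to 3 genes and 33 to 55 distal peaks. Footprints within 50 kb of replicate 1 numbered 253 in stricter peaks and 407 in all. Genes with an interval within 1 kb numbered 6 and 2 at an FDR of at most 0.05, 1 in replicate 2 at 0.01, and 3 and 0 at 0.001. The causes of these moves were not tested, beyond fewer or more peaks entering each count. No paired analysis was possible because there was only 1 group. Read depth is unknown here. The stricter list of replicate 2 holds 26804 peaks against 114758, and a site missing from it was not detected at that threshold, which does not show that it was closed.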

Other observations

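Likeness of other genes to each troponin gene was measured over 4 values, the number of distal peaks and the highest promoter peak in each library. Nearest to Tnnt1 were Mroh6, R3hdml and Fermt3, each with 7 distal peaks in replicate 1 and 2 in replicate 2, and nearest to Tnni1 were Ass1, Castor1 and Nfe2, with 8 and 2. Nearest to Tnni2 were Irgm1, Pml and Fblim1, and nearest to Tnnt3 were Olfr750, Hist1h1d and Rnase12, with 14 to 16 and 6. Nearest to Tnnc1 were St6galnac1, Atp6v1fnb and Ptgis, with 7 to 18 distal peaks in replicate 1 and 13 to 26 in replicate 2, beside its own 11 and 21. Ties at the smallest distance were shared by 134 genes for Tnnc2, 34 for Tnni3 and 21 for Tnnt2, and no gene is singled out there.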
